A study of Mus musculus with 15 samples.

Results

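The genes described here are 34 synaptic genes, which encode proteins of synaptic vesicles and their release machinery and the scaffolds that hold receptors on the receiving side of the synapse. They were chosen by symbol, and each was represented by the brightest of its probe sets, a probe set being a group of short oligonucleotide probes whose signals are combined into 1 intensity. Of the 34 genes, 33 had a probe set that carried their symbol alone, out of 18193 genes with such a probe set in the series, and all 33 were bright enough to be tested. Shank2 had no such probe set and is not described further. Together the 33 genes had 91 probe sets, of which 78 were tested.

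The series measured total RNA of mouse forebrain on 15 arrays, in 3 groups of 5. EPO-HI 11 to 15 received erythropoietin, a hormone best known for driving red blood cell formation, at 5 U per g into the peritoneum and then hypoxic ischemia, which combines a reduced blood supply with low oxygen. VEH-HI 6 to 10 received vehicle and then hypoxic ischemia, and VEH-Sham 1 to 5 received vehicle and then sham surgery. Injections preceded the procedure by 1 h. The labels consulted give no strain, age, sex, hemisphere or time from injury to sampling. Nor do they state whether each array is a separate animal, so the p-values cover the variation among these arrays, some of which may be technical. In whole forebrain RNA, fewer neurons and less RNA per neuron cannot be told apart.

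A nerve terminal stores transmitter in vesicles that carry a SNARE protein, and this protein zips together with SNARE proteins of the plasma membrane to fuse the vesicle when a synaptotagmin senses calcium. Active zone scaffolds hold vesicles near calcium channels, and neurexins on the terminal bind neuroligins on the dendrite. Across the cleft, scaffolds of the Dlg, Dlgap and Shank families stack into the postsynaptic density beneath glutamate receptors, where calcium acts through calmodulin and CaMKII. Forebrain neurons express all of these families at high levels.

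The arrays did not form a uniform set. VEH-Sham 1 to 4 had median intensities of 55.3 to 57.9, whereas VEH-Sham 5 and the 10 hypoxic ischemia arrays had 39.2 to 44.4, although the trimmed mean was 150.0 on every array. VEH-Sham 5 is therefore shown apart from its group throughout, and for the members the VEH-HI difference from the whole VEH-Sham group is set beside the difference from this single array, which has no error of its own. Being bright enough to be tested could not check the tissue label, since most cerebellum markers met it too. It was met by 23 of 24 general neuron markers and 10 of 12 striatal projection neuron markers. It was also met by 18 of 18 thalamus and hypothalamus markers and 6 of 8 cerebellum markers. Values are log2(intensity + 16) unless intensities are named. Differences are on that scale, understate the change of dim genes, and carry the standard error (SE) of limma, the linear model used for all tests. Values compare arrays for the same probe set and never different probe sets with each other.

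Promoter sequence is shown for 3 of the genes that passed the test after hypoxic ischemia and for Syn1, whose window holds a motif that is rare among all genes. The RefSeq promoter table of assembly GRCm38.p6 held 43 windows for 28 of the genes, each covering the 250 bases before a transcription start. In the sequences below, written in the direction of transcription, capitals mark matches on either strand to TTCAGCACC (the left part of RE1, the element bound by the repressor REST that keeps neuronal genes silent outside neurons), GGACAG (its right part), TGACGTCA (the cyclic AMP response element, CRE) and GGGCGG (the GC box). Snap91 lies on the minus strand at chr9:86880709-86880958, Slc17a7 on the plus strand at chr7:45163671-45163920, the second Nlgn1 window on the minus strand at chr3:26153987-26154236 and Syn1 on the minus strand at chrX:20920919-20921168.
Snap91: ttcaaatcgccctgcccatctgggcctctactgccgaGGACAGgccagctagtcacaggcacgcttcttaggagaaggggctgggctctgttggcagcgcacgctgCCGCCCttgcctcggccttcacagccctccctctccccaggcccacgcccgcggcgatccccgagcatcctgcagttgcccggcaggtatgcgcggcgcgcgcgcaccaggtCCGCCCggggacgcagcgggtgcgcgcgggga
Slc17a7: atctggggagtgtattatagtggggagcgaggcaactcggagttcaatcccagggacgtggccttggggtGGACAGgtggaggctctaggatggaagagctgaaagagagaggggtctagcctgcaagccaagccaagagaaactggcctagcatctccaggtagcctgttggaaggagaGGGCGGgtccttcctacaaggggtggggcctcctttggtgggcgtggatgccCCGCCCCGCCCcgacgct
Nlgn1: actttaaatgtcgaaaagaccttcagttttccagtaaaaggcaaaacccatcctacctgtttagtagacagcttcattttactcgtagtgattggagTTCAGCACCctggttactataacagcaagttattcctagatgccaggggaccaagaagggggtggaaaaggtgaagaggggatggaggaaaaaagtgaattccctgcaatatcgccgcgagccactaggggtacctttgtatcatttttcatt
Syn1: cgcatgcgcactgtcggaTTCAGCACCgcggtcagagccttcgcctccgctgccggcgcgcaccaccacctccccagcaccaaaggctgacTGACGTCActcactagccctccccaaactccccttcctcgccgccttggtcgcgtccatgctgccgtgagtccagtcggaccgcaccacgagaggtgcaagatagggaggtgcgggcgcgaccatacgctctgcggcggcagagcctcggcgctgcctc

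TTCAGCACC occurred in 2 of the 43 windows, those of Nlgn1 and Syn1 printed above, and in 0.301% of all 32851 windows in the table. GGACAG was found in 7 windows of the synaptic genes (16.3%), against 18.7% of all windows. The CRE stood in 1 window, that of Syn1 (2.33%), against 1.55% of all windows. The GC box stood in 18 (41.9%), against 32.7%. A match describes these letters only. No motif overlapped another in the printed windows except the overlapping GC boxes of Slc17a7.

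After hypoxic ischemia with vehicle, 4 of the 33 synaptic genes fell against VEH-Sham at an adjusted p under 0.05 in limma, and 0 rose. The 4 were Shank1, a scaffold deep in the postsynaptic density, Snap91, a clathrin assembly protein that shapes recycling vesicles, Slc17a7, a vesicular glutamate transporter typical of cortex and hippocampus, and Nlgn1, a neuroligin of excitatory synapses. That is 12.1% of the genes, against 11.5% of all 13168 tested genes that were lower in VEH-HI and 11.9% that were higher, so the share that fell was near the background. The differences were small, with a median of -0.11 against -0.02 over all tested genes and a range of -0.62 to 0.27. The all-gene median varied with mean log2 value. It was -0.18 under 7, -0.0050 from 7 to 8, 0.058 from 8 to 9, 0.089 from 9 to 10 and 0.12 above. The 1, 3, 8, 10 and 11 synaptic genes in these ranges had medians of -0.62, -0.11, -0.097, -0.13 and -0.076. The share of all genes that fell varied as well, at 17.0%, 10.3%, 6.55%, 6.72% and 7.05% in the same order. Of the synaptic genes, 1, 1, 1, 0 and 1 fell in these ranges. Of the 33, 27 lay below 0 (81.8%), against 52.7% of all genes, and 10 had an unadjusted p under 0.05 (30.3%), below the 38.2% of all genes. All 4 calls were lost where VEH-Sham 5 alone stood for its group, either with the array set as a block or among the 11 arrays of its set, and in both settings 0 of all tested genes were lower, against 1510 as analysed here. Each of the 4 was also lost on leaving out at least 1 array: Shank1 without VEH-Sham 1, Snap91 without VEH-Sham 4 or VEH-HI 6, Slc17a7 without VEH-Sham 1, VEH-Sham 3, VEH-HI 6 or VEH-HI 9, and Nlgn1 without any of VEH-Sham 1 to 4, VEH-HI 6 or VEH-HI 7.

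**Figure D1:**
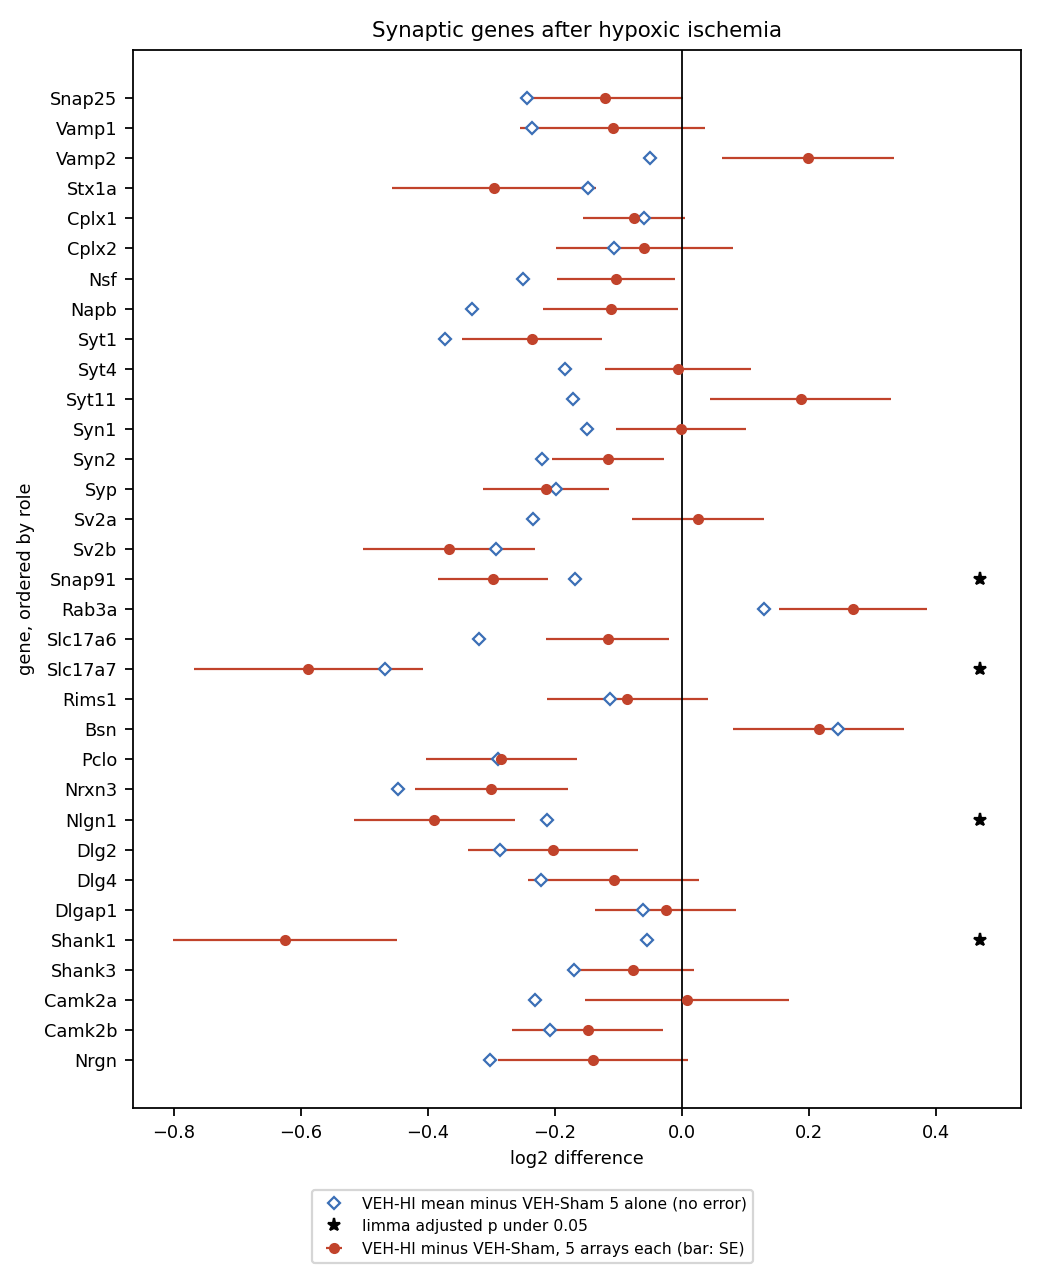
Difference between VEH-HI and VEH-Sham on the log2(intensity + 16) scale for each of the 33 synaptic genes with its standard error (5 arrays per group), and the same VEH-HI mean minus VEH-Sham 5 alone. Stars mark the 4 genes with an adjusted p under 0.05 in limma, Shank1, Snap91, Slc17a7 and Nlgn1, and most of the other points also lie left of 0.

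Set against VEH-Sham 5 alone, the VEH-HI mean was lower for 31 of the 33 genes (93.9%), against 49.6% of all tested genes. The exceptions were Rab3a and Bsn. The median difference from VEH-Sham 5 was -0.21, against 0.0026 for all genes. Every VEH-HI array lay below VEH-Sham 5 for 11 genes (33.3%), against 15.2% of all tested genes. These were Nsf, Napb, Syt1, Syt4, Syn2, Sv2a, Sv2b, Snap91, Slc17a6, Nrxn3 and Dlg2. VEH-Sham 5 was itself high for this set, above the mean of VEH-Sham 1 to 4 for 24 genes and below it for 9, and it lay above the whole range of those 4 arrays for 12 genes and below it for 4. All 10 hypoxic ischemia arrays were below VEH-Sham 5 for 5 genes, Syt1, Syt4, Nsf, Slc17a6 and Nrxn3 (15.2%), against 8.17% of all tested genes. Lists of other neuronal genes also had VEH-HI means mostly below VEH-Sham 5. This held for 21 of 23 general neuron markers (91.3%) and 47 of 58 other presynaptic genes (81.0%). Among other postsynaptic genes it held for 28 of 42 (66.7%). Every VEH-HI array lay below VEH-Sham 5 for 12, 26 and 8 genes of these lists. All these counts rest on 1 array, and genes of 1 array are not independent of each other.

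**Figure D2:**
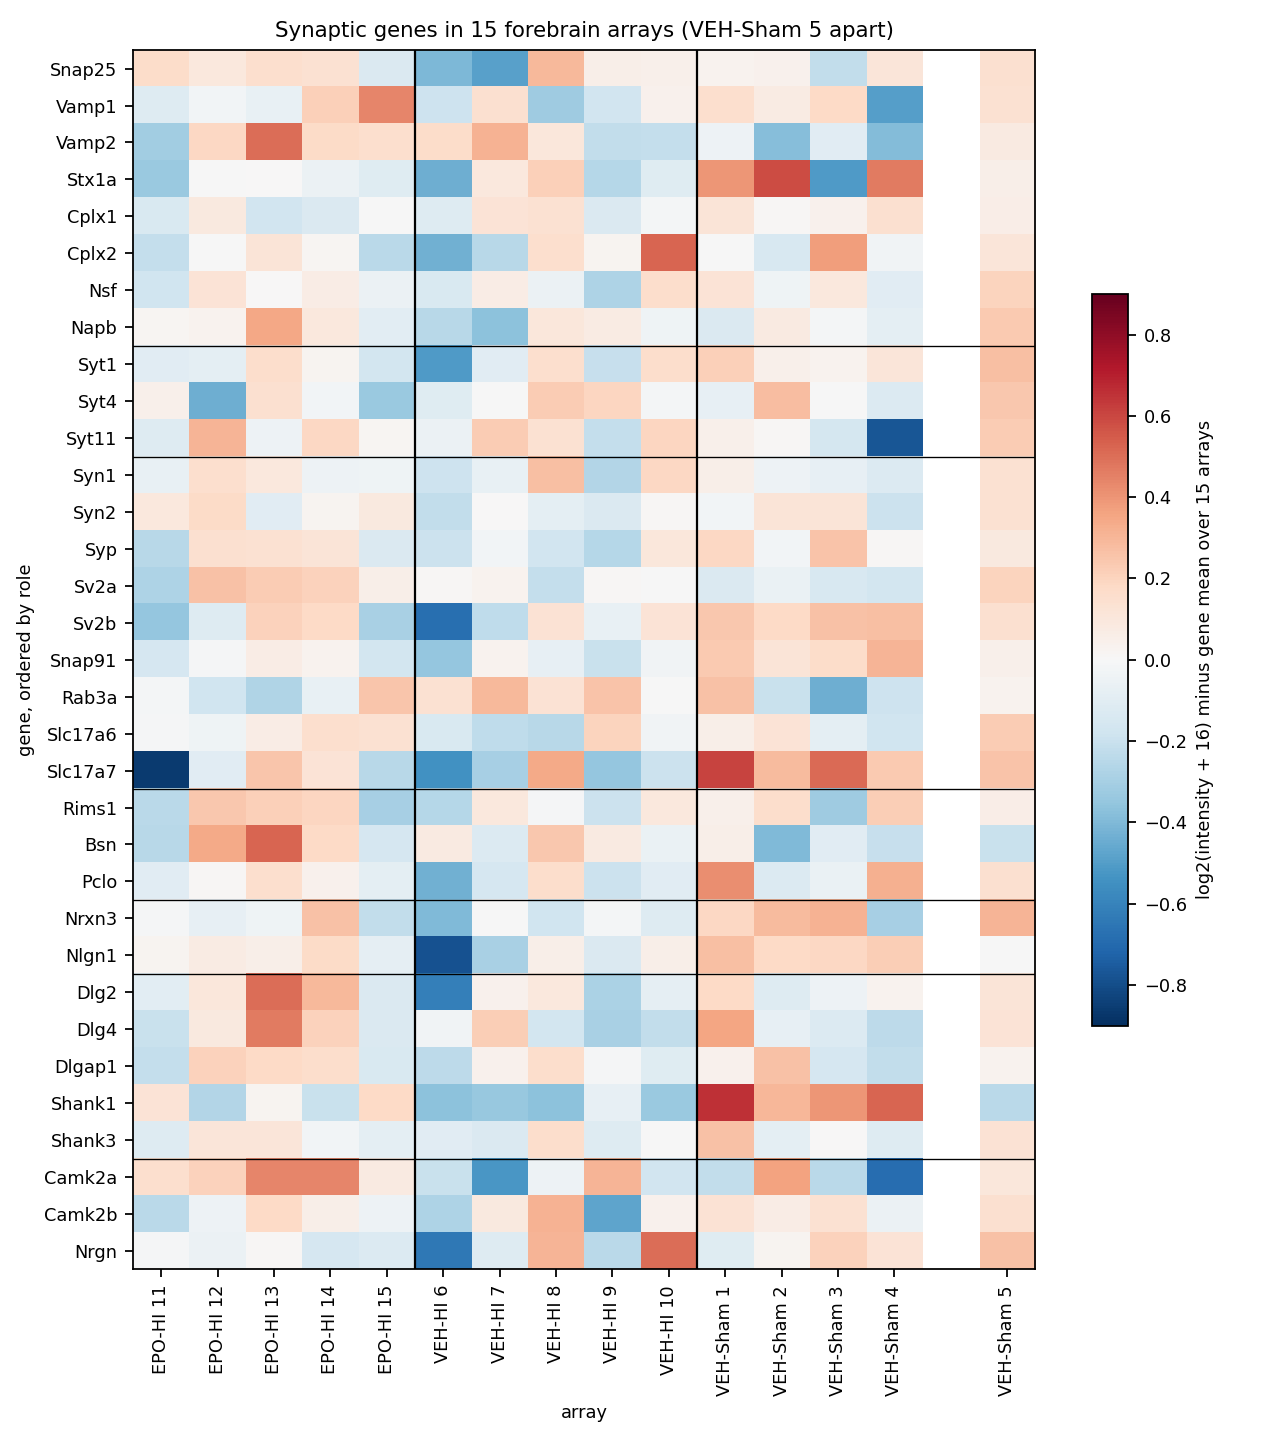
Each row is a synaptic gene and each column an array, and the colour gives log2(intensity + 16) minus the gene's mean over the 15 arrays. VEH-Sham 5 stands in a column of its own on the right, where 3 of 33 genes lie below their mean, and VEH-HI 6 is the column with the most genes below it, 29 of 33.

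The 8 SNARE proteins and their partners did not pass the test in any comparison of their brightest probe sets, and their median difference between VEH-HI and VEH-Sham was -0.11. Snap25, a SNARE of the plasma membrane, measured 11.98, 11.90, 11.96, 11.94 and 11.68 in EPO-HI 11 to 15, 11.40, 11.32, 12.10, 11.86 and 11.85 in VEH-HI 6 to 10, 11.84, 11.84, 11.59 and 11.92 in VEH-Sham 1 to 4 and 11.95 in VEH-Sham 5. VEH-HI 6 and VEH-HI 7 lay below every other array, and the remaining VEH-HI values overlapped VEH-Sham. The VEH-HI mean of 11.71 ± 0.33 (SD, n = 5) differed from the VEH-Sham mean of 11.83 ± 0.14 by -0.12 (SE 0.12, adjusted p = 0.497 in limma), and from VEH-Sham 5 by -0.24. Napb, an adaptor that recruits the ATPase Nsf to used SNARE complexes, measured 9.98, 9.99, 10.31, 10.06 and 9.87 in EPO-HI 11 to 15, 9.71, 9.60, 10.07, 10.04 and 9.93 in VEH-HI 6 to 10, 9.83, 10.05, 9.95 and 9.87 in VEH-Sham 1 to 4 and 10.20 in VEH-Sham 5. All 5 VEH-HI arrays and 4 of the 5 EPO-HI arrays lay below VEH-Sham 5, and both groups overlapped VEH-Sham 1 to 4. Its VEH-HI mean differed by -0.11 from VEH-Sham (SE 0.11, adjusted p = 0.465) and by -0.33 from VEH-Sham 5. Of the others, the SNARE proteins Vamp1, Vamp2 and Stx1a differed by -0.11, 0.20 and -0.30 from VEH-Sham and by -0.24, -0.051 and -0.15 from VEH-Sham 5, so Vamp2 changed sign. The complexins Cplx1 and Cplx2, which clamp and assist fusion, differed by -0.076 and -0.059 from VEH-Sham and by -0.060 and -0.11 from VEH-Sham 5. Nsf differed by -0.10 from VEH-Sham and by -0.25 from VEH-Sham 5. The brightest probe set of Stx1a is of a type that may also bind related transcripts.

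None of the 3 synaptotagmins passed. Syt1, the calcium sensor for fast release, measured 11.25, 11.26, 11.51, 11.37 and 11.19 in EPO-HI 11 to 15, 10.84, 11.25, 11.51, 11.14 and 11.51 in VEH-HI 6 to 10, 11.57, 11.40, 11.38 and 11.46 in VEH-Sham 1 to 4 and 11.62 in VEH-Sham 5. Each of the 10 hypoxic ischemia arrays lay below VEH-Sham 5, while VEH-HI 8, VEH-HI 10 and EPO-HI 13 lay within the range of VEH-Sham 1 to 4. The VEH-HI mean was 11.25 ± 0.28 and the VEH-Sham mean 11.49 ± 0.11 (SD, n = 5 each), a difference of -0.24 (SE 0.11, adjusted p = 0.123 in limma) and of -0.37 from VEH-Sham 5. Syt4 and Syt11, family members with weak or no calcium sensing of their own, differed by -0.0062 and 0.19 from VEH-Sham, and by -0.18 and -0.17 from VEH-Sham 5, where Syt11 changed sign. The brightest probe set of Syt11 may also bind related transcripts.

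Among the 9 vesicle proteins, coat proteins and transporters, 2 fell and 0 rose. Snap91 (probe set 1416688_at) measured 11.14, 11.28, 11.36, 11.32 and 11.12 in EPO-HI 11 to 15, 10.94, 11.32, 11.22, 11.09 and 11.26 in VEH-HI 6 to 10, 11.52, 11.40, 11.46 and 11.59 in VEH-Sham 1 to 4 and 11.33 in VEH-Sham 5. Every VEH-HI value lay below every VEH-Sham value, with VEH-HI 7 just under VEH-Sham 5. The means of 11.16 ± 0.15 in VEH-HI and 11.46 ± 0.10 in VEH-Sham (SD, n = 5 each) differed by -0.30 (SE 0.09, adjusted p = 0.0196 in limma), and VEH-HI lay -0.17 from VEH-Sham 5. In intensities, VEH-HI spanned 1948 to 2538 and VEH-Sham 2563 to 3074.

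Slc17a7, which loads glutamate into vesicles (probe set 1428986_at), measured 6.40, 7.15, 7.50, 7.37 and 7.01 in EPO-HI 11 to 15, 6.71, 6.96, 7.60, 6.90 and 7.06 in VEH-HI 6 to 10, 7.87, 7.54, 7.76 and 7.49 in VEH-Sham 1 to 4 and 7.51 in VEH-Sham 5. VEH-HI 8 reached the VEH-Sham range and the other 4 VEH-HI arrays lay below it. The VEH-HI mean of 7.05 ± 0.33 was -0.59 from the VEH-Sham mean of 7.63 ± 0.17 (SD, n = 5 each; SE 0.18, adjusted p = 0.0251 in limma) and -0.47 from VEH-Sham 5. Of the 4 genes that fell, Slc17a7 kept the most of its difference when set against VEH-Sham 5 alone. Slc17a6, the glutamate transporter more typical of thalamus and other subcortical neurons, differed by -0.12 from VEH-Sham (adjusted p = 0.398) and by -0.32 from VEH-Sham 5.

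Sv2b, a vesicle membrane glycoprotein, measured 9.24, 9.47, 9.79, 9.76 and 9.30 in EPO-HI 11 to 15, 8.91, 9.36, 9.72, 9.52 and 9.71 in VEH-HI 6 to 10, 9.83, 9.77, 9.85 and 9.86 in VEH-Sham 1 to 4 and 9.73 in VEH-Sham 5. The VEH-HI values lay below every VEH-Sham value, VEH-Sham 5 included, with VEH-HI 8 at the border. The difference was -0.37 (SE 0.14) from VEH-Sham and -0.29 from VEH-Sham 5, and the adjusted p of 0.0546 in limma missed the threshold. Snap91 and Sv2b were the only ones of the 33 genes whose VEH-HI arrays all lay below all VEH-Sham arrays (6.06%), against 4.09% of all tested genes. Rab3a, the small GTPase that guides vesicles to the active zone, was on the other side with 11.08, 10.92, 10.82, 11.03 and 11.34 in EPO-HI 11 to 15, 11.23, 11.39, 11.22, 11.35 and 11.09 in VEH-HI 6 to 10, 11.36, 10.89, 10.65 and 10.91 in VEH-Sham 1 to 4 and 11.13 in VEH-Sham 5. All VEH-HI arrays but VEH-HI 10 lay above VEH-Sham 2 to 5, and VEH-Sham 1 lay among them. Its difference of 0.27 (SE 0.12, adjusted p = 0.0963) did not pass and was 0.13 from VEH-Sham 5, its brightest probe set may also bind related transcripts, and its other probe set differed by 0.021. Syp, the vesicle protein synaptophysin, differed by -0.21 (adjusted p = 0.119) from VEH-Sham and by -0.20 from VEH-Sham 5, while the synapsins Syn1 and Syn2, which tether the reserve pool, differed by -0.0014 and -0.12 from VEH-Sham and by -0.15 and -0.22 from VEH-Sham 5. Sv2a changed sign, with 0.025 from VEH-Sham and -0.23 from VEH-Sham 5.

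**Figure D3:**
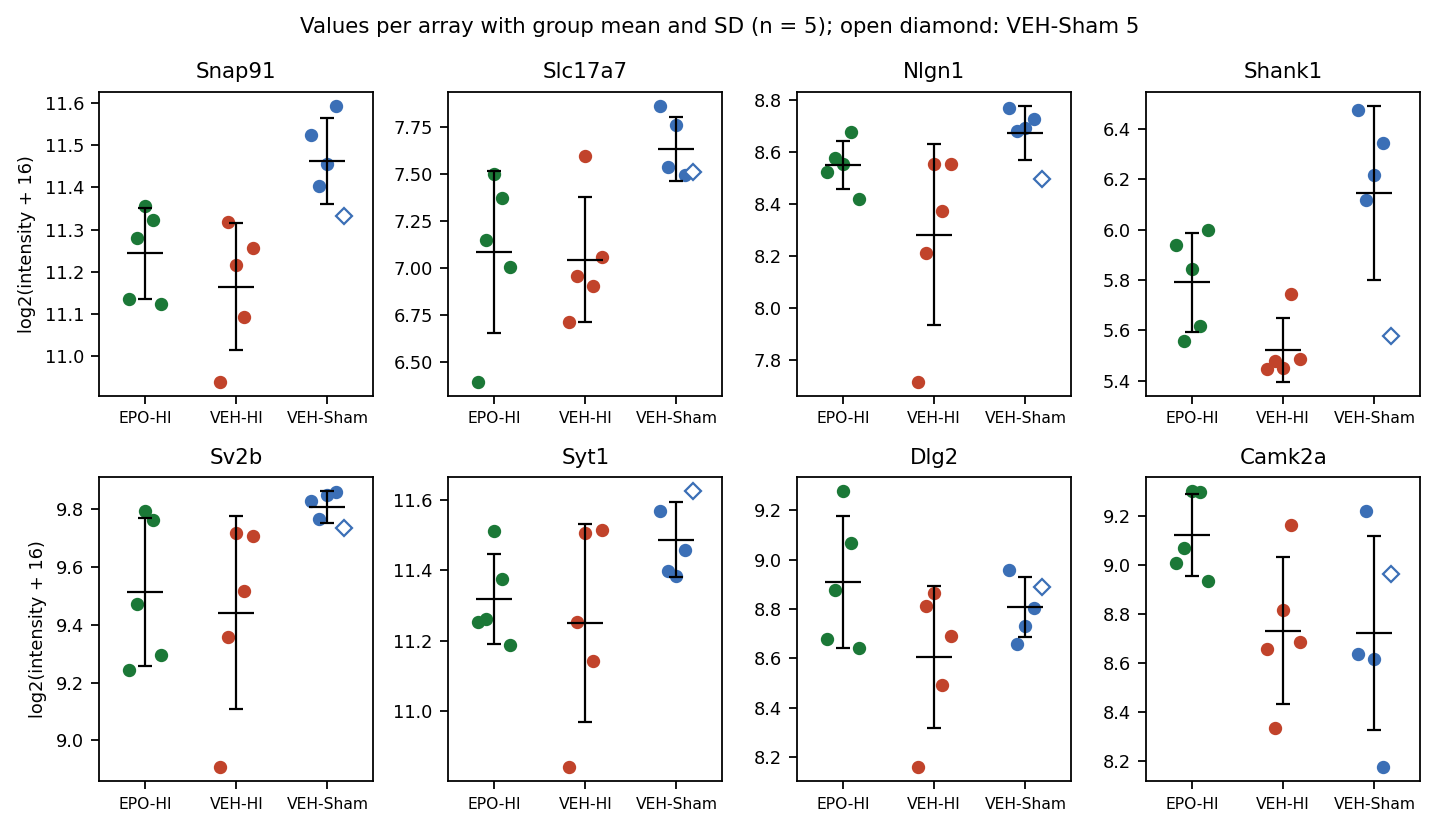
Each point is an array, with log2(intensity + 16) on the vertical axis and the groups EPO-HI, VEH-HI and VEH-Sham from left to right, and the bar is the group mean with its SD (n = 5). VEH-Sham 5 is an open diamond. For Snap91 and Sv2b all VEH-HI points lie below all VEH-Sham points, and for Shank1 the diamond lies with the hypoxic ischemia points.

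Of the 3 active zone scaffolds 0 passed. Rims1, which binds Rab3 and calcium channels, measured 8.70, 9.19, 9.15, 9.14 and 8.64 in EPO-HI 11 to 15, 8.68, 9.04, 8.94, 8.75 and 9.04 in VEH-HI 6 to 10, 8.99, 9.10, 8.62 and 9.17 in VEH-Sham 1 to 4 and 9.00 in VEH-Sham 5. The groups overlapped throughout, with lows at EPO-HI 11, EPO-HI 15, VEH-HI 6 and VEH-Sham 3, and the difference between VEH-HI and VEH-Sham was -0.086 (SE 0.13, adjusted p = 0.652 in limma), and -0.11 from VEH-Sham 5. Pclo, a giant scaffold of the vesicle cluster, measured 8.15, 8.26, 8.40, 8.29 and 8.16 in EPO-HI 11 to 15, 7.82, 8.10, 8.40, 8.05 and 8.15 in VEH-HI 6 to 10, 8.67, 8.13, 8.19 and 8.57 in VEH-Sham 1 to 4 and 8.39 in VEH-Sham 5. VEH-HI 6 was the lowest of the 15 arrays and VEH-HI 8 lay above VEH-Sham 2, 3 and 5. Pclo differed by -0.28 (SE 0.12, adjusted p = 0.0861), and by -0.29 from VEH-Sham 5. Bsn, its partner scaffold, differed by 0.22 from VEH-Sham and by 0.25 from VEH-Sham 5.

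Both adhesion genes lay lower, and Nlgn1 passed. Nlgn1 (probe set 1437160_at) measured 8.52, 8.58, 8.55, 8.68 and 8.42 in EPO-HI 11 to 15, 7.72, 8.21, 8.55, 8.37 and 8.55 in VEH-HI 6 to 10, 8.77, 8.68, 8.69 and 8.73 in VEH-Sham 1 to 4 and 8.50 in VEH-Sham 5. VEH-HI lay below VEH-Sham 1 to 4 on every array, with VEH-HI 6 far below the rest, but VEH-HI 8 and VEH-HI 10 exceeded VEH-Sham 5. The means of 8.28 ± 0.35 in VEH-HI and 8.67 ± 0.11 in VEH-Sham (SD, n = 5 each) differed by -0.39 (SE 0.13, adjusted p = 0.0324 in limma), and VEH-HI lay -0.21 from VEH-Sham 5. Nrxn3, a presynaptic neurexin, measured 9.03, 8.96, 9.00, 9.30 and 8.81 in EPO-HI 11 to 15, 8.64, 9.03, 8.86, 9.02 and 8.92 in VEH-HI 6 to 10, 9.23, 9.32, 9.35 and 8.73 in VEH-Sham 1 to 4 and 9.34 in VEH-Sham 5. VEH-Sham 4 was low with the hypoxic ischemia arrays, and the other 4 VEH-Sham arrays lay above all VEH-HI arrays. The difference of -0.30 (SE 0.12, adjusted p = 0.0752) did not pass, and VEH-HI lay -0.45 from VEH-Sham 5.

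Among the 5 measured postsynaptic scaffolds, Shank1 fell and all 5 differences were below 0. Shank1 (probe set 1444240_at) measured 5.94, 5.56, 5.84, 5.62 and 6.00 in EPO-HI 11 to 15, 5.45, 5.48, 5.45, 5.74 and 5.49 in VEH-HI 6 to 10, 6.48, 6.12, 6.22 and 6.34 in VEH-Sham 1 to 4 and 5.58 in VEH-Sham 5. VEH-Sham 1 to 4 stood above all VEH-HI arrays, whereas VEH-Sham 5 lay among them. The VEH-HI mean was 5.52 ± 0.13 and the VEH-Sham mean 6.15 ± 0.35 (SD, n = 5 each), a difference of -0.62 (SE 0.18, adjusted p = 0.0168 in limma) that shrank to -0.055 against VEH-Sham 5. Its intensities were 27.7 to 37.6 in VEH-HI and 31.7 to 73.0 in VEH-Sham, which put it among the dim genes with a mean under 7 on the log2 scale. Over all 4939 genes in that range the median difference between VEH-HI and VEH-Sham was -0.18, and it was 0.12 among genes at 10 and over. Dlg2, a membrane scaffold for glutamate receptors, measured 8.68, 8.88, 9.28, 9.07 and 8.64 in EPO-HI 11 to 15, 8.16, 8.81, 8.87, 8.49 and 8.69 in VEH-HI 6 to 10, 8.96, 8.66, 8.73 and 8.80 in VEH-Sham 1 to 4 and 8.89 in VEH-Sham 5. All VEH-HI arrays lay below VEH-Sham 5, with VEH-HI 8 just under it, and its difference of -0.20 (SE 0.13, adjusted p = 0.278) did not pass and was -0.29 from VEH-Sham 5. Dlgap1, which links the Dlg and Shank layers, measured 8.70, 9.12, 9.09, 9.07 and 8.78 in EPO-HI 11 to 15, 8.68, 8.95, 9.07, 8.90 and 8.80 in VEH-HI 6 to 10, 8.95, 9.18, 8.76 and 8.69 in VEH-Sham 1 to 4 and 8.94 in VEH-Sham 5. Its groups overlapped, with a difference of -0.026 (SE 0.11, adjusted p = 0.889) from VEH-Sham and -0.062 from VEH-Sham 5. Dlg4, the main scaffold of the excitatory density, and Shank3 differed by -0.11 and -0.077 from VEH-Sham and by -0.22 and -0.17 from VEH-Sham 5.

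None of the 3 genes of postsynaptic calcium signalling passed at the brightest probe set. Camk2a, the alpha subunit of CaMKII, measured 9.01, 9.07, 9.30, 9.30 and 8.94 in EPO-HI 11 to 15, 8.66, 8.33, 8.81, 9.16 and 8.69 in VEH-HI 6 to 10, 8.64, 9.22, 8.62 and 8.18 in VEH-Sham 1 to 4 and 8.96 in VEH-Sham 5. The EPO-HI arrays lay above all others except VEH-HI 9, VEH-Sham 2 and VEH-Sham 5, VEH-Sham 4 was the lowest array, and VEH-HI and VEH-Sham had the same mean to within 0.0084 (SE 0.16), with VEH-HI at -0.23 from VEH-Sham 5. Camk2b, the beta subunit, measured 9.70, 9.90, 10.12, 9.99 and 9.89 in EPO-HI 11 to 15, 9.66, 10.03, 10.25, 9.46 and 9.98 in VEH-HI 6 to 10, 10.07, 10.01, 10.08 and 9.89 in VEH-Sham 1 to 4 and 10.08 in VEH-Sham 5. Its groups overlapped, with a difference of -0.15 (SE 0.12, adjusted p = 0.377 in limma) from VEH-Sham and -0.21 from VEH-Sham 5. Nrgn, a postsynaptic protein that holds calmodulin, differed by -0.14 (adjusted p = 0.521) from VEH-Sham and by -0.30 from VEH-Sham 5.

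Probe sets of the same gene did not always give the same size of difference. Over all 78 tested probe sets, 14 were lower in VEH-HI than in VEH-Sham at an adjusted p under 0.05 and 0 were higher, and the 14 belonged to 13 genes. That is 17.9% lower, against 13% lower and 9.85% higher of all 27022 tested probe sets. Of the 45 that were not the brightest of their gene, 10 were lower (22.2%, against the same 13%), with a median of -0.22 against -0.11 for the brightest. These 45 are the dimmer probe sets of their genes. Over all tested genes the median difference was -0.18 under 7 and 0.12 at 10 and over. Probe sets of like brightness were not compared. The second probe set of Snap25, 1447763_at, differed by -0.75 (adjusted p = 0.0032 in limma), against -0.12 at the brightest. For Camk2a, 1437125_at and 1442707_at differed by -0.51 and -0.59 (adjusted p = 0.0397 and 0.00599), whereas the brightest showed almost none. Syt1 had -0.51 at 1421990_at, Dlg2 had -0.63 at 1421199_at and Slc17a6 had -0.40 at 1418610_at. The remaining 4 belonged to Vamp2 (-0.37), Cplx1 (-0.51), Sv2b (-0.48) and Bsn (-0.52). For Vamp2 and Bsn the brightest probe set lay above 0. Set against VEH-Sham 5, these 10 probe sets lay between -0.64 and -0.10. Which transcripts each probe set detects was not tested.

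Erythropoietin before hypoxic ischemia was compared with vehicle before hypoxic ischemia, and 0 of the 33 genes passed in limma, with 0 passing among all tested genes (0%). Over all 27022 probe sets the smallest adjusted p was 0.138, and 1066 had an unadjusted p under 0.05. The synaptic genes lay mostly on the side of higher values in EPO-HI, with 27 of 33 above 0 (81.8%) and a median of 0.079, against 48.1% above 0 and a median of -0.0052 over all genes. Single arrays moved these values. Without VEH-HI 6 the count above 0 was 21 of 33 and the median 0.023, and the median was 0.038 without EPO-HI 13, 0.121 without VEH-HI 8 and 0.140 without EPO-HI 11. Differences ran from -0.22 to 0.39, and the 95% intervals of single genes reached from -0.46 to 0.72.

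**Figure D4:**
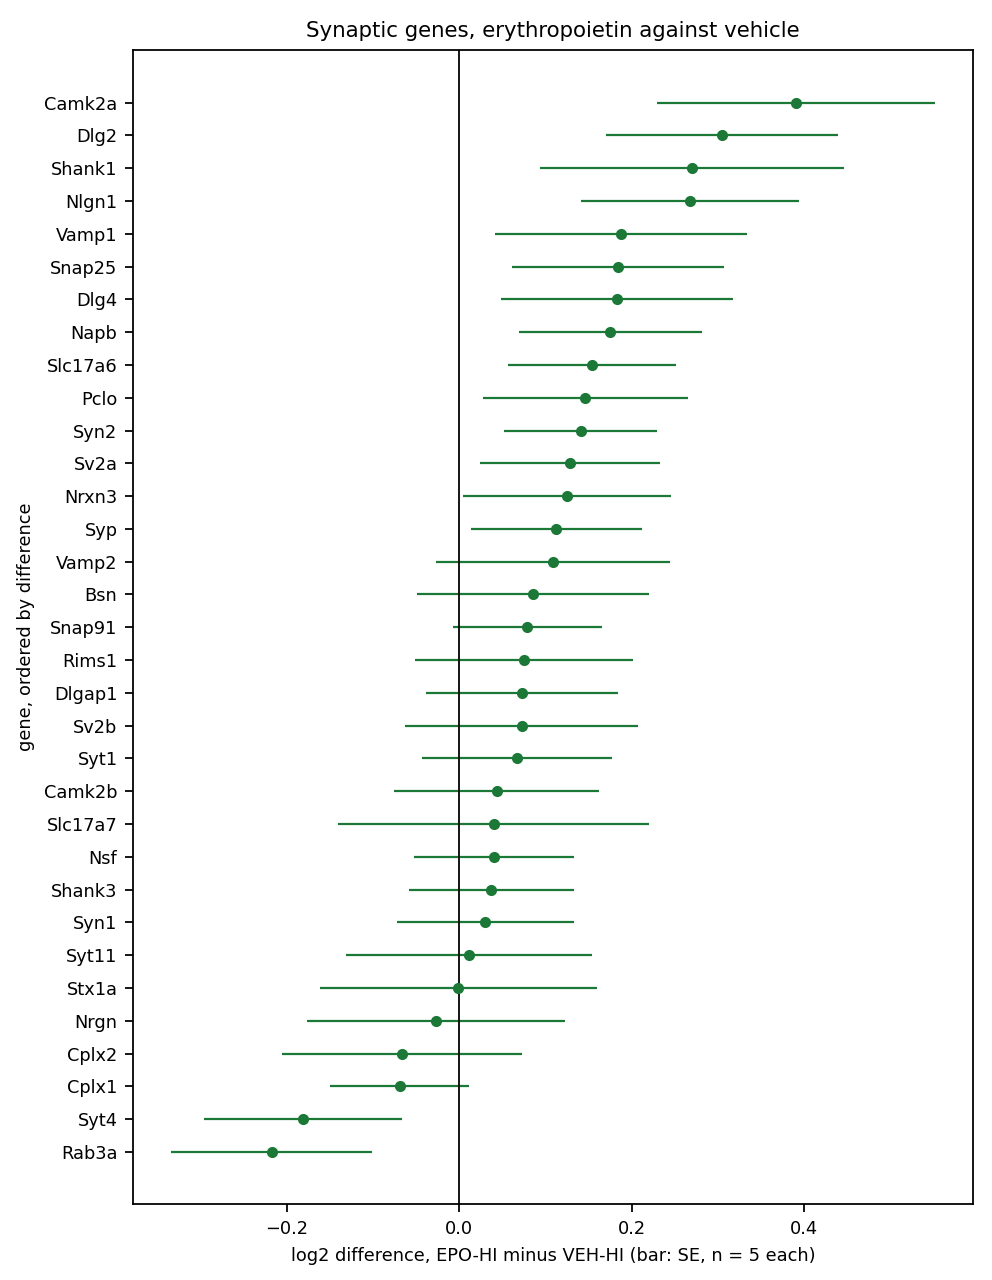
Difference between EPO-HI and VEH-HI on the log2(intensity + 16) scale for each of the 33 synaptic genes, with its standard error (5 arrays per group). Of the points, 27 lie right of 0 and 0 passed an adjusted p under 0.05 in limma.

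Camk2a, Dlg2 and Nlgn1 had the smallest unadjusted p of the set in this comparison, and they were the 3 genes with one under 0.05. For Camk2a, the EPO-HI mean was 9.12 ± 0.17 and its VEH-HI mean 8.73 ± 0.30 (SD, n = 5 each), and the groups overlapped. The difference was 0.39 (95% interval 0.06 to 0.72, adjusted p = 1.0 in limma). Dlg2 averaged 8.91 ± 0.27 in EPO-HI and 8.60 ± 0.29 in VEH-HI, a difference of 0.30 (95% interval 0.03 to 0.58, adjusted p = 1.0 in limma). Nlgn1 averaged 8.55 ± 0.09 in EPO-HI and 8.28 ± 0.35 in VEH-HI, a difference of 0.27 (95% interval 0.0037 to 0.53, adjusted p = 1.0 in limma). VEH-HI 6 was the lowest of the 15 arrays for Dlg2 and Nlgn1, and VEH-Sham 4 for Camk2a. Rab3a went the other way, with 11.04 ± 0.20 in EPO-HI and 11.26 ± 0.12 in VEH-HI, a difference of -0.22 (95% interval -0.46 to 0.02, adjusted p = 1.0 in limma).

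Of the genes that fell in VEH-HI, Slc17a7 differed by 0.040 between EPO-HI and VEH-HI (95% interval -0.34 to 0.42), Snap91 by 0.079 (95% interval -0.10 to 0.26) and Shank1 by 0.27 (95% interval -0.10 to 0.64). Snap25 differed by 0.18 (95% interval -0.07 to 0.44). By role, all 5 postsynaptic scaffolds, all 3 active zone scaffolds and both adhesion genes lay above 0, as did 8 of the 9 vesicle genes, 5 of the 8 SNARE genes, 2 of the 3 synaptotagmins and 2 of the 3 calcium signalling genes. Among the 45 other probe sets 36 lay above 0, and 3, belonging to Napb (2 probe sets) and Slc17a6, had an unadjusted p under 0.05. Of all tested genes 48.1% lay above 0, and of all 27022 tested probe sets 1066 had an unadjusted p under 0.05.

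The third comparison, EPO-HI with VEH-Sham, shares its VEH-Sham arrays with the first and its EPO-HI arrays with the second. In it 1 of the 33 genes fell (3.03%), against 9.46% of all tested genes that were lower, and 0 rose, against 8.86% that were higher. The gene was Slc17a7, with 7.09 ± 0.43 in EPO-HI and 7.63 ± 0.17 in VEH-Sham (SD, n = 5 each), a difference of -0.55 (SE 0.18, adjusted p = 0.0401 in limma) and of -0.43 from VEH-Sham 5. Slc17a7 no longer passed once VEH-Sham 1, 2, 3 or 4, EPO-HI 11, 12 or 15 was left out, nor where VEH-Sham 5 stood alone. EPO-HI 11 was the lowest of the 15 arrays for Slc17a7, and all 5 EPO-HI arrays lay below VEH-Sham 5. The median over the 33 was -0.040, against -0.013 over all genes, and it was -0.12 from VEH-Sham 5. Leaving out single arrays moved this median, to -0.0082 without VEH-Sham 1, -0.017 without VEH-Sham 5, -0.012 without EPO-HI 11 and -0.024 without EPO-HI 15. At the other end it was -0.066 without EPO-HI 13, -0.068 without EPO-HI 12, -0.072 without VEH-Sham 2 and -0.079 without VEH-Sham 4. Every EPO-HI array lay below VEH-Sham 5 for 9 genes (27.3%), against 15.9% of all tested genes, and the EPO-HI mean was below it for 26 of 33 (78.8%), against 50.6% of all genes. The 9 were Stx1a, Nsf, Syt1, Syt4, Slc17a6, Slc17a7, Nrxn3, Shank3 and Nrgn. Without passing the test, Snap91 differed by -0.22 (adjusted p = 0.0805), Sv2b by -0.29 (adjusted p = 0.127) and, on the higher side, Camk2a by 0.40 (adjusted p = 0.0853), Vamp2 by 0.31 (adjusted p = 0.113) and Bsn by 0.30 (adjusted p = 0.119).

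The average level of the 33 genes shifted from array to array. The mean over the genes of each value minus the gene's 15-array mean was -0.13, 0.05, 0.14, 0.09 and -0.06 in EPO-HI 11 to 15, -0.27, -0.06, 0.06, -0.11 and 0.01 in VEH-HI 6 to 10, 0.14, 0.06, 0.01 and -0.05 in VEH-Sham 1 to 4 and 0.12 in VEH-Sham 5. VEH-HI 6 was the lowest array and EPO-HI 13 and VEH-Sham 1 were the highest, and the 3 groups overlapped. Of the 10 hypoxic ischemia arrays, VEH-HI 6 held the lowest value for 13 genes, and within EPO-HI, EPO-HI 11 held the lowest for 16 genes and EPO-HI 13 the highest for 16. The SD of a gene within a group had a median of 0.168 in EPO-HI, 0.187 in VEH-HI and 0.164 in VEH-Sham.

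**Figure D5:**
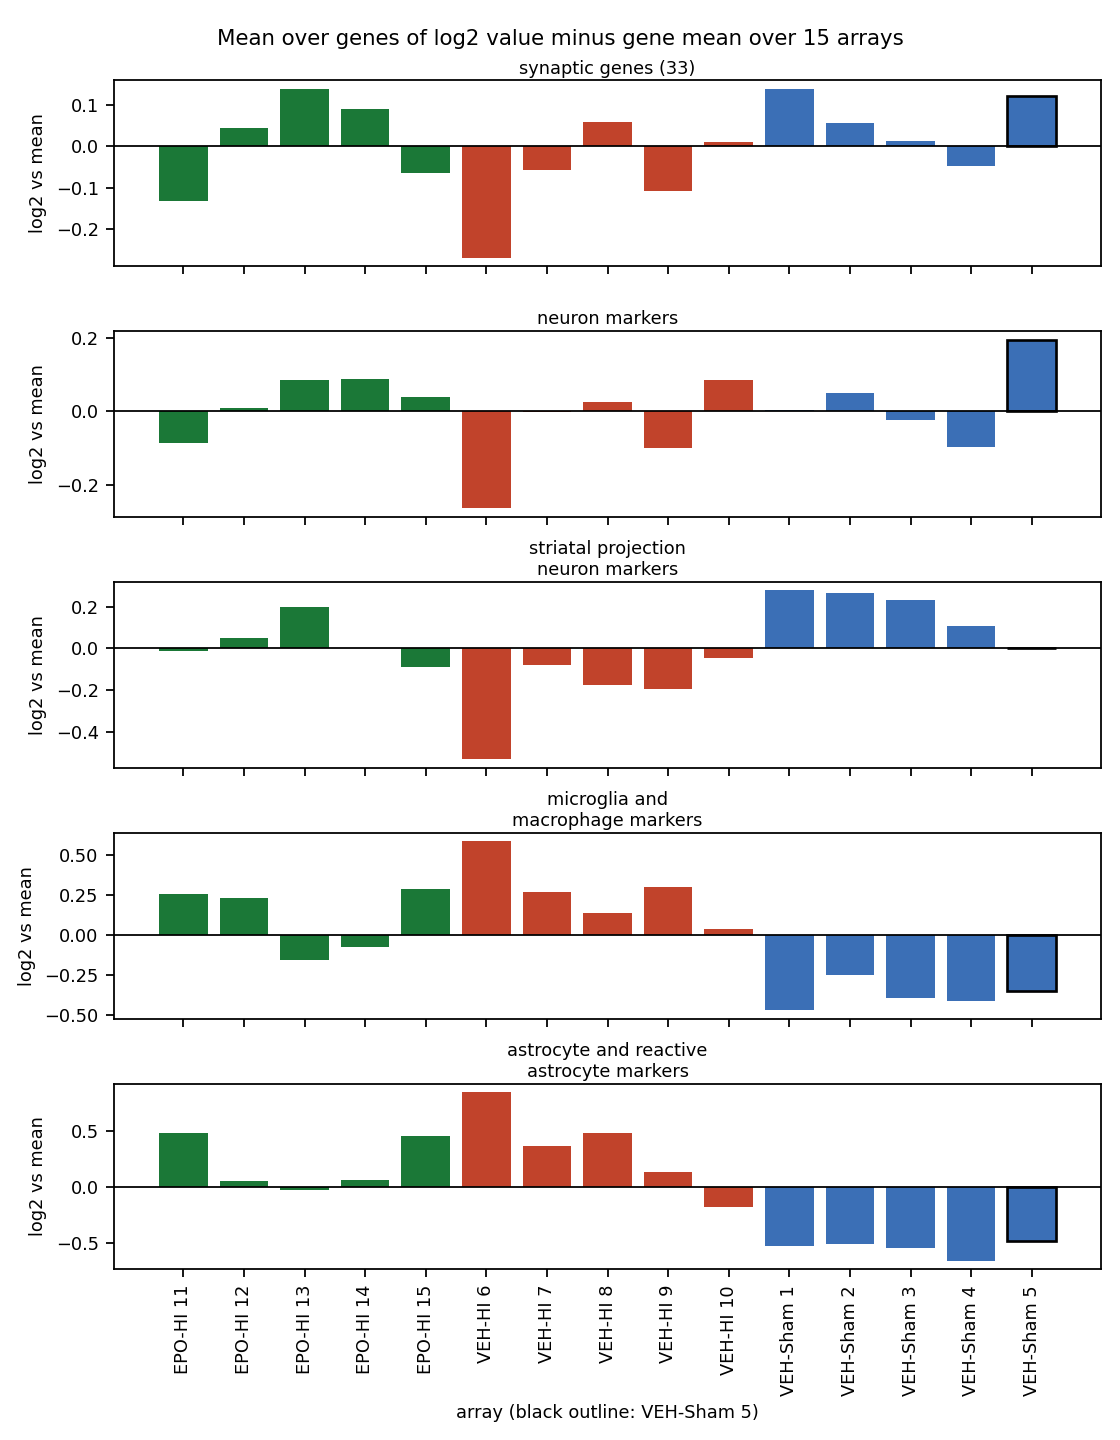
Mean over the 33 synaptic genes, and over marker lists of other cell types, of log2(intensity + 16) minus each gene's 15-array mean, shown for each array with EPO-HI left, VEH-HI next and VEH-Sham right. VEH-HI 6 has the lowest synaptic mean, -0.27, and the highest astrocyte mean, 0.85.

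Markers of glia and blood cells differed between the groups and between these arrays. As background, 11.9% of all tested genes rose and 11.5% fell in VEH-HI against VEH-Sham. Of 18 tested microglia and macrophage markers, 13 rose and 1 fell in VEH-HI against VEH-Sham (median 0.52), and of 16 astrocyte markers 10 rose and 0 fell (median 0.97). From VEH-Sham 5 alone the list medians were 0.69 and 0.79. The calls of these markers, rises as well as falls, rest on the whole VEH-Sham group. Like the falls of the synaptic genes, they are not secured by VEH-Sham 5 alone, a single array with no error of its own. The summed intensity of the microglia list spanned 4398 to 6073 in EPO-HI, 5213 to 7759 in VEH-HI and 3571 to 4334 in VEH-Sham, and that of the astrocyte list 17932 to 21924 in EPO-HI, 18071 to 25603 in VEH-HI and 12824 to 16401 in VEH-Sham. The highest microglia and astrocyte list means of the 15 arrays, 0.59 and 0.85, were those of VEH-HI 6. That array also had the lowest neuron and striatal list means, -0.26 and -0.53. No tested marker was at 0 in any group. Between EPO-HI and VEH-HI no list had a gene that passed. In that comparison 0 of 18 microglia markers and 3 of 16 astrocyte markers lay above 0, against 48.1% of all tested genes. Of the smaller lists, 2 of 10 endothelium markers rose and 1 fell in VEH-HI, 2 of 7 neutrophil and blood markers rose, 2 of 5 choroid plexus markers rose, 1 of 13 oligodendrocyte markers fell and 0 of 6 cerebellum markers passed. The part of these cell types in the synaptic differences was not tested.

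Other genes of the synapse and of neurons were set beside the 33. Over all tested genes, 11.9% rose and 11.5% fell in VEH-HI against VEH-Sham. Of 58 other presynaptic genes, 2 rose and 9 fell in VEH-HI against VEH-Sham, with a median of -0.11 and of -0.17 from VEH-Sham 5. Synpr, a vesicle protein related to synaptophysin, fell by 0.93 on the log2 scale (adjusted p = 0.000355 in limma) and Ppfia2, a liprin of the active zone, by 0.68 (adjusted p = 0.000742), and both lay closer to VEH-Sham 5, at -0.32 and -0.36. Of 42 other postsynaptic genes, 2 rose and 7 fell, with a median of -0.098 and of -0.047 from VEH-Sham 5. The calcineurin subunit Ppp3ca and the scaffold Lin7c fell by 0.44 and 0.35 on that scale and lay -0.38 and -0.17 from VEH-Sham 5. Of 23 general neuron markers, 1 rose and 2 fell, with a median of -0.067 and of -0.21 from VEH-Sham 5. The 2 that fell were the calcium sensor Vsnl1 at -0.50 and the RNA-binding protein Elavl4 at -0.39. From VEH-Sham 5 they lay -0.53 and -0.024. Of the 10 markers of striatal projection neurons, 5 fell (median -0.38), led by the phosphodiesterase Pde10a at -0.97, which lay -0.37 from VEH-Sham 5. As for all genes, no fall in these lists passed where VEH-Sham 5 alone stood for its group. Of 18 thalamus and hypothalamus markers 1 rose and 2 fell. Between EPO-HI and VEH-HI, 35 of 58 presynaptic genes, 35 of 42 postsynaptic genes and 20 of 23 neuron markers lay above 0. Their medians were 0.057, 0.068 and 0.052, and 0 passed. Striatal projection neuron markers lay above 0 for 9 of 10 (median 0.28), again with 0 passing. Thalamus and hypothalamus markers went the other way, with 4 of 18 above 0 (median -0.039) and 0 passing. Of all tested genes, 48.1% lay above 0, with a median of -0.0052.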

How the data were processed

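Mouse forebrain RNA was hybridised to 15 Affymetrix Mouse Genome 430 2.0 arrays, 5 for each of the EPO-HI, VEH-HI and VEH-Sham groups given by the labels. The deposited values are linear intensities, 1 for each of 45101 probe sets and each array. The authors' summary software is not named in the labels or the file. On every array the mean intensity is 150.0 once 2% of probe sets are trimmed at each end, so values were used as scaled. The 64 control probe sets were left out. Values were taken as log2(intensity + 16), and the brightest 60% of probe sets by mean (27022) were kept for testing. A single model of 3 group means was fitted to all 15 arrays in limma 3.58.1 under R 4.3.3, using lmFit and eBayes with its trend option. Tests were two-sided, and a Benjamini-Hochberg adjusted p under 0.05, adjusted across every probe set kept, was taken as passing. Each gene took the values of the brightest probe set carrying its symbol alone in the platform annotation (13168 genes). Tables and figures used Python 3.11.15, pandas 2.3.3 and matplotlib 3.10.9. The number of arrays limits the precision. The fit was tested on simulated data.

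The synaptic genes and the 12 gene lists were chosen with earlier results of these data known. Values in every array are given for the 8 genes with the smallest p in VEH-HI against VEH-Sham, the 4 with the smallest p in EPO-HI against VEH-HI, the 4 farthest from VEH-Sham 5 and the brightest of each role. Alternatives covered the pseudocount, the filter, the scaling, the variance model, array weights, the choice of probe set, the array set as a block or alone, and leaving out each array.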

Additional observations from a re-analysis of the deposited data

Results flagged for a closer look

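Dixon's test was applied to the 5 arrays of each group for each of the 33 synaptic genes, 99 sets in all, and 6 sets held an array far from the other 4, where chance gives about 5%. On the log2(intensity + 16) scale, Snap25 was 11.68 in EPO-HI 15, with the other EPO-HI arrays between 11.90 and 11.98. Shank1 was 5.74 in VEH-HI 9, above the other VEH-HI arrays at 5.45 to 5.49. Sv2a was 9.29 in VEH-HI 8, below the other VEH-HI arrays at 9.50 to 9.54, and 9.71 in VEH-Sham 5, above the other VEH-Sham arrays at 9.34 to 9.45. VEH-Sham 4 was low for Nrxn3, at 8.73 against 9.23 to 9.35 in the other VEH-Sham arrays, and for Vamp1, at 6.65 against 7.23 to 7.33.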

How the results depend on the processing

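No paired analysis was possible because the replicate numbers run through the whole series and no number occurs in more than 1 group. The count of genes lower in VEH-HI than in VEH-Sham, 4 as analysed, was 7 under quantile normalization (without Shank1), 10 with the median over a gene's probe sets, and 0 with equal array medians, with the array set as a block and within the 11 arrays that include VEH-Sham 5 alone of its group. In the last 2 settings 0 of all tested genes were lower, and VEH-Sham 5 is the only VEH-Sham array behind the difference and is assumed to vary like the others. Of all tested genes, 11.5% were lower in VEH-HI as analysed and 9.88% under quantile normalization. The share was 13.2% with the median over probe sets and 3.28% with equal array medians. Slc17a7 was the 1 gene of the 33 lower in EPO-HI than in VEH-Sham. Under quantile normalization it was lost, and 2 others, Snap91 and Cplx1, were lower. The count was 3 with array weights and 4 with the median over probe sets, Slc17a7 included in both, and 0 without the filter, without the eBayes trend, with equal medians, with the block and within the 11 arrays. Of all tested genes, 6.95% were lower in EPO-HI under quantile normalization, 17.9% with array weights and 10.8% with the median over probe sets. Equal medians made 3 of the 33 genes higher in VEH-HI and 5 higher in EPO-HI than in VEH-Sham, where the main setting had 0. Array weights made 2 higher in EPO-HI. Of all 13168 tested genes, 3834 and 4413 were higher with equal medians, and 2091 were higher in EPO-HI with array weights. Equal medians also turned the median of the 33 genes to 0.13 for VEH-HI and 0.23 for EPO-HI against VEH-Sham and left 8 of 33 below 0 for VEH-HI. That scaling shifts every gene of an array by the same amount, and it moved the median of all genes by 0.24 and 0.28. Relative to all genes the synaptic median, -0.092 and -0.027, therefore could not change under it. Under quantile normalization, which can change it, the synaptic median relative to all genes was -0.21 and -0.11. Of the probe sets that passed between VEH-HI and VEH-Sham, 43.1% were higher as scaled, 85.6% with equal medians and 53.3% under quantile normalization. With the median over probe sets, Camk2a was -0.50 between VEH-HI and VEH-Sham. Between EPO-HI and VEH-Sham, Snap25 was -0.36 and Dlg2 -0.50. In the same comparisons the brightest probe sets of Camk2a, Snap25 and Dlg2 lay just above 0, at 0.0084 (SE 0.16), 0.062 (SE 0.12) and 0.10 (SE 0.13). The cause was not tested.

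Leaving out 1 array at a time gave 1 to 6 lower and 0 to 1 higher genes for VEH-HI against VEH-Sham, and 0 to 3 lower and 0 to 2 higher for EPO-HI against VEH-Sham. For VEH-HI, only 1 gene was lower without VEH-Sham 1, where 6.93% of all tested genes were lower. Without VEH-HI 8, 6 were lower, beside 10.3% of all tested genes. For EPO-HI, the 3 lower genes came without VEH-Sham 5, where 17.5% of all tested genes were lower. Over all settings in which the gene was tested, the adjusted p for VEH-HI against VEH-Sham ranged from 0.00449 to 0.905 for Snap91, 0.00813 to 0.868 for Slc17a7, 0.0146 to 0.923 for Nlgn1 and 0.000946 to 0.988 for Shank1, and that of Slc17a7 for EPO-HI against VEH-Sham from 0.0237 to 1.0. Of settings other than those that lose all 4, Shank1 was also lost under quantile normalization, and Nlgn1 without the eBayes trend and with only the 2 groups compared. In every setting that kept VEH-Sham 5, the VEH-HI mean lay below that same array for 30 or 31 of the synaptic genes tested. Settings that changed only the model, or left out an array of neither VEH-HI nor VEH-Sham 5, kept the values behind this count. The count could not move in them, so its stability there is no test. The median difference between EPO-HI and VEH-HI was 0.023 without VEH-HI 6 and 0.14 without EPO-HI 11, and 0 genes passed for that pair in every setting run.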
